A study of Mus musculus with 9 samples.

Results

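Mitosis and DNA replication are run by 2 sets of genes that a dividing cell switches on one after the other. The 45 such genes studied here were listed by name, with earlier results of these data known. Of these, 24 act in mitosis and 21 in DNA replication. At least 1 probe set that the platform annotation gives to that gene alone was held by 44 of them (23 mitotic, 21 replication). The annotation used here lists no probe set for Ccnb1, so its level was not analysed here. A probe set is a group of short probes that reports 1 transcript or a few, and the 44 genes held 104 probe sets out of 45101 on the array and 18194 named genes. The arrays came from NIH 3T3 cells, an immortalised mouse embryo fibroblast line. Cells were starved of serum, and all 3 groups received cycloheximide, which blocks protein synthesis, at 3 µg/ml for 2 h. The control group received nothing else. The CytoD group also received 2 µM cytochalasin D for 90 min, and the LatB+CytoD group 2 µM cytochalasin D with 5 µM latrunculin B for 90 min. Both drugs take apart actin filaments. Each group had 3 arrays, described as independent biological replicates and numbered 1, 3 and 7, and what the numbers stand for is not stated in the labels. Sample titles of the LatB+CytoD group mention only latrunculin B, but the agent label gives both drugs and was followed.

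In resting cells the DREAM complex, built from RB-family proteins, E2F factors and the MuvB core, holds both sets of genes down. When a cell passes from G1 into S phase, activating E2F factors turn on the genes that license origins, build replication forks and supply nucleotides. The mitotic genes follow in G2, when B-MYB and FOXM1 join MuvB at a short promoter element called the cell cycle genes homology region, together with NF-Y at CCAAT boxes. The levels of these transcripts in a culture therefore follow how many of its cells are in cycle. In bulk RNA, fewer cycling cells and less transcript per cell cannot be told apart.

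Windows at the annotated starts of 6 members are shown, as examples with and without the promoter elements named above. Each window runs from 250 bases before to 50 after the transcription start, 300 bases in all, from RefSeq on assembly GRCm38.p6, printed 5′ to 3′ along the gene, and capitals mark the letters found. Searched on both strands were CCAAT, the homology region as TTTGAA or TTCGAA, and E2F sites as TTCCCGC or TTGGCGC.
Ccnb1, chr13:100786437-100786736, minus strand: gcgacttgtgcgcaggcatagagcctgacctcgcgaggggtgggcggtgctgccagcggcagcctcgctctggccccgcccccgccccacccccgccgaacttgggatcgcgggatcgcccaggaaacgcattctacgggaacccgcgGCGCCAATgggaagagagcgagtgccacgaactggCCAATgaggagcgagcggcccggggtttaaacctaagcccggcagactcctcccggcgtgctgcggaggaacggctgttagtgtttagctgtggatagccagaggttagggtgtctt
Plk1, chr7:122159185-122159484, plus strand: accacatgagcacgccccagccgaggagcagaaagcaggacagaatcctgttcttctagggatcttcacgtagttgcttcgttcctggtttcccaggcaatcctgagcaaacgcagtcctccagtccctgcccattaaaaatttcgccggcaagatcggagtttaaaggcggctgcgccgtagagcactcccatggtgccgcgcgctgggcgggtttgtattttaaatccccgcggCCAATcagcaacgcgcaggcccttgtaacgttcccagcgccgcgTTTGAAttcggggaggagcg
Cdc20, chr4:118437294-118437593, minus strand: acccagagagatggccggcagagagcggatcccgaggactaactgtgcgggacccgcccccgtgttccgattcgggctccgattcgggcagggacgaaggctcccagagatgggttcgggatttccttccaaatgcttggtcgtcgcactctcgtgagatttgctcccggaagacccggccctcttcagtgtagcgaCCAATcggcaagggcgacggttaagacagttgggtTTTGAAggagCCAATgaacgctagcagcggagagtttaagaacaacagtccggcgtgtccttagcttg
Mcm5, chr8:75109259-75109558, plus strand: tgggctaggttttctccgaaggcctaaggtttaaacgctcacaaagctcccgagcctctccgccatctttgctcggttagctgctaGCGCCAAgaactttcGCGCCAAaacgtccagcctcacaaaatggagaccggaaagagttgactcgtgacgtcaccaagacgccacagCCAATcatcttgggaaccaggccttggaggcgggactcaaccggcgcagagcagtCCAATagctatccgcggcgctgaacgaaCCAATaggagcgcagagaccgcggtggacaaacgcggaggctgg
Cdc6, chr11:98907901-98908200, plus strand: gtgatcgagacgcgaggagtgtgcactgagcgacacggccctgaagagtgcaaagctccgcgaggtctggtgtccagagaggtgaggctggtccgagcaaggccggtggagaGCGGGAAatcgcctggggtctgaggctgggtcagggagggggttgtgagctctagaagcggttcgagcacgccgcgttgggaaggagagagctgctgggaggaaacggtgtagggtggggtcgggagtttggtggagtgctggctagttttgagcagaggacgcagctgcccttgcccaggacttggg
E2f1, chr2:154569377-154569676, minus strand: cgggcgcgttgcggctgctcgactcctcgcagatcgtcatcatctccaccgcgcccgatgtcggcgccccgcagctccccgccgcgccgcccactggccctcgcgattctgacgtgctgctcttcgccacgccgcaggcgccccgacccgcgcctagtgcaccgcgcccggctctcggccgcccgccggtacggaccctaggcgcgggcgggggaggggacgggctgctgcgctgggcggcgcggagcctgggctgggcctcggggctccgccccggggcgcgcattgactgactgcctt
In the Plk1 window a CCAAT began 14 bases before the start and a TTTGAA at base 30 after it. Cdc20 held CCAAT at 53 and 8 bases before the start, with TTTGAA between them at 18 bases before it. Mcm5 had a different layout, with a pair of E2F sites 164 and 149 bases before the start and 3 CCAAT boxes nearer to it. Cdc6 had a single E2F site, 138 bases before its start. The E2f1 window, the only one held for that gene, contained none of these letters. Much of it reads as protein-coding sequence, so it does not show whether promoter sequence further upstream holds them. Ccnb1 held 2 CCAAT boxes, 1 of which overlapped an E2F match, so those letters were counted for both elements. Neither TTTGAA nor TTCGAA was found in the Ccnb1 window, and no other letters were searched for the homology region.

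Windows were held for 20 of the 24 mitotic and 18 of the 21 replication genes, with the first window taken for the genes that had 2. The E2f1 window was counted among them. The homology region was present in 16 of the 20 mitotic windows (80%), in 2 of the 18 replication windows (11.1%) and in 19.4% of all 27025 windows. E2F sites had the opposite distribution, with 3 mitotic windows (15%), 11 replication windows (61.1%) and 6.93% of all windows. CCAAT boxes were frequent in both sets, in 18 mitotic (90%) and 12 replication windows (66.7%), against 37.9% of all windows. A match of letters is a description of the window and not evidence that a factor bound there.

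Intensities are the deposited values on a linear scale. Array medians lay between 7.57 and 7.84, and the 9 arrays were all different. The 10 fibroblast markers, among them the collagens Col1a2 and Col3a1, were above 100 on all arrays, whereas 8 of 8 endothelial, 7 of 8 epithelial and 7 of 10 macrophage and leukocyte markers stayed below 20. The exceptions were Krt14, Cd14, Lyz2 and Csf1r. To be tested, a probe set had to exceed the 40th percentile of an array on 3 or more arrays, which 91 of the 104 member probe sets did (43 of 51 mitotic, 48 of 53 replication). The 13 untested ones had mean intensities of at most 5.78. Each gene is represented by its brightest tested probe set (highest mean of the 9 arrays) unless another is named, and changes are differences of log2(intensity + 16) from limma with their standard errors (SE). A change was called at a Benjamini-Hochberg adjusted p under 0.05 over all 27010 probe sets tested. Tyms, thymidylate synthase, had only dim probe sets among those given to it alone, the brightest at 8.50 to 12.8 on the 9 arrays, so nothing can be read from them. A further probe set that carries both Tyms and the pseudogene Tyms-ps was not used here. Because each gene's probes differ, levels are compared between arrays and not between genes.

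**Figure D1:**
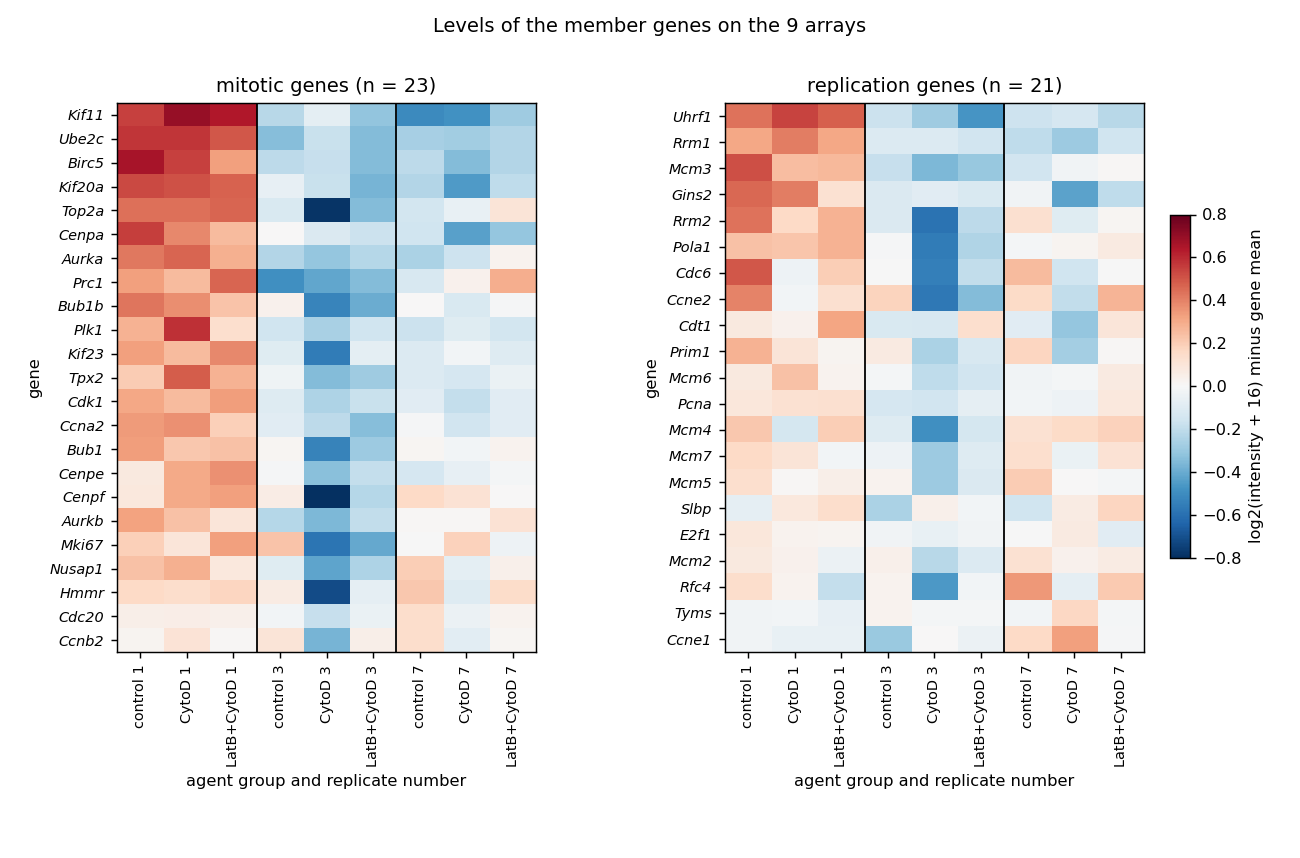
Level of each member gene on the 9 arrays, as log2(intensity + 16) minus the gene's mean over the arrays. Columns are ordered by replicate number and then agent group, rows by the difference between number 1 and the others, and values beyond the colour scale share its end colours. The 3 arrays numbered 1 are the red block in most mitotic rows and in the upper replication rows, and no such block follows the agent.

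The first question is whether the actin drugs altered these genes within 90 min. The fits for the agents left out the replicate number, so differences between the numbers stayed in their standard errors. A fit that includes the number is given in the closing section on processing. With CytoD against control, 0 of 91 member probe sets were called, where 1.57% of all tested probe sets were called in either direction (423 of 27010). At an unadjusted p under 0.05 there were 1 higher and 4 lower, beside 1226 higher and 1526 lower of all 27010, and the smallest adjusted p was 0.226. Of the 44 members 34 were below 0, as were 7332 of all 12651 genes. The mitotic genes had a median log2 difference of -0.12 and the replication genes of -0.13, against -0.00 over all genes. These medians rest on single arrays: without control 1 they were 0.04 and -0.03, and without CytoD 3 they were 0.03 and -0.05. Nor were they the same in each replicate number. CytoD minus control was -0.00, -0.16 and -0.04 for the mitotic genes in numbers 1, 3 and 7, and -0.05, -0.19 and -0.09 for the replication genes. The CytoD array numbered 3 was the lowest of the 9 arrays for 28 of the 44 genes, as it was for 14.4% of all genes.

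The 2 largest differences were those of Ccne2 and Cdc6. Ccne2, cyclin E2, which activates CDK2 at the G1/S transition, had intensities of 171, 145 and 141 in controls numbered 1, 3 and 7, of 124, 79.5 and 108 with CytoD, and of 139, 95.4 and 155 with LatB+CytoD. Every CytoD value was below every control value, whereas the LatB+CytoD values overlapped both groups. CytoD and control did not overlap in 11.0% of member probe sets and 11.5% of all tested ones, either direction counted. The log2 difference of Ccne2 between CytoD and control was -0.50 (SE 0.20, limma adjusted p = 0.447). Cdc6, which loads the MCM helicase onto origins, read 388, 269 and 326 in controls, 262, 180.0 and 241 with CytoD and 312, 233 and 269 with LatB+CytoD. In each number the order was control, LatB+CytoD, CytoD from high to low. In the fit without the replicate number, the difference of CytoD from control was also -0.50 (SE 0.18, adjusted p = 0.403). Whether Cdc6 was called depended on including that number, as the closing section shows. Rfc4, a subunit of the clamp loader, had 756, 697 and 875 in controls, 697, 492 and 649 with CytoD and 598, 674 and 794 with LatB+CytoD. Its difference of CytoD from control was -0.34 (SE 0.16), that of Prim1, the catalytic primase subunit, was -0.32 (SE 0.11), and neither was called.

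Slbp went the other way. It encodes the protein that binds the stem-loop of histone mRNAs, and its intensities were 2564, 2252 and 2409 in controls, 2856, 2769 and 2821 with CytoD, and 2967, 2648 and 3030.2 with LatB+CytoD. All 6 drug-treated arrays exceeded all 3 controls. Over all tested probe sets, 5.05% had every CytoD value above every control, and 4.09% every LatB+CytoD value. The Slbp differences of 0.23 for CytoD (SE 0.063, adjusted p = 0.226) and 0.26 for LatB+CytoD (SE 0.063, adjusted p = 0.379) did not pass the threshold, and both rest on the same 3 control arrays. Hmmr, a spindle protein, had 572, 537 and 595 in controls numbered 1, 3 and 7, 565, 305 and 474 with CytoD and 577, 487 and 567 with LatB+CytoD, so that CytoD 3 stood far below the rest. Among the mitotic genes Hmmr (-0.37, SE 0.21), Bub1b (-0.25, SE 0.27) and Mki67 (-0.24, SE 0.25) had the most negative differences between CytoD and control, and Kif11 (0.11, SE 0.43) and Plk1 (0.10, SE 0.24) the most positive. The standard errors were large beside these differences, because the arrays of a group were far apart.

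LatB+CytoD against control gave 0 called member probe sets, beside 0.111% of all tested probe sets (30 of 27010), with 1 higher and 1 lower at an unadjusted p under 0.05 beside 721 and 704 of all. Median log2 differences were -0.05 for mitotic and -0.07 for replication genes, against 0.00 over all genes. They were 0.11 and 0.01 without control 1, and 0.06 and -0.00 without LatB+CytoD 3. The most negative replication genes were again Cdc6 (-0.25, SE 0.18), Ccne2 (-0.22, SE 0.20) and Prim1 (-0.21, SE 0.11). The most negative mitotic ones were Bub1b, Cenpa and Mki67, from -0.21 to -0.18, and Prc1, which bundles microtubules in the central spindle, was at 0.24 (SE 0.30). Cdt1 was at 0.23 (SE 0.10). This comparison and the one before share their controls, so the values are given side by side and not as 2 independent results.

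CytoD against LatB+CytoD gave 0 called member probe sets, beside 0.259% of all tested (70 of 27010). At an unadjusted p under 0.05 there were 0 higher and 1 lower, beside 667 and 474 of all. The lower one was Cdt1, the second factor needed to load MCM helicases, whose intensities were 1624, 1412 and 1442 in controls numbered 1, 3 and 7, 1574, 1408 and 1239 with CytoD and 1919, 1693 and 1648 with LatB+CytoD. Every LatB+CytoD value of Cdt1 was above all its other values. In 900 of all 27010 tested probe sets every CytoD value was below every LatB+CytoD value. The log2 difference of CytoD from LatB+CytoD for Cdt1 was -0.32 (SE 0.10, adjusted p = 0.844). Ccne2 (-0.28, SE 0.20) and Cdc6 (-0.25, SE 0.18) came next among the replication genes. Of the mitotic genes Hmmr (-0.31, SE 0.21), Top2a (-0.21, SE 0.36) and Prc1 (-0.18, SE 0.30) had the most negative differences and Plk1 (0.13, SE 0.24) the most positive. Medians were -0.04 for mitotic and -0.06 for replication genes, against -0.01 over all genes. Without LatB+CytoD 1 the mitotic median was 0.08, and without CytoD 3 the medians were 0.12 and 0.04.

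For the mitotic genes a much larger difference ran along the replicate numbers. The replication median was nearer in size to the -0.13 of CytoD against control. By the median of either set, arrays numbered 1 carried more of these transcripts than those numbered 3 and 7, and did so in every agent group. In a fit with number and agent as factors, 44 of the 91 member probe sets were called higher in number 1 and 0 lower. Over all tested probe sets 18.1% were called in either direction and 9.59% were called higher (2591 of 27010). Counted by gene, 24 of 44 members were higher, beside 8.18% of all genes (1035 of 12651). Because the members were chosen with earlier results of these data known, these counts are a description and not independent support. Mitotic genes were called more often, 16 of 23, than replication genes, 8 of 21, a difference between the sets that was not itself tested. The median log2 difference was 0.48 for the mitotic genes, 1.40-fold, and 0.17 for the replication genes, 1.13-fold, against 0.00 for all genes. All 23 mitotic and 18 of the 21 replication genes were above 0, beside 6625 of all 12651 genes. The exceptions were Ccne1 (-0.07), Rfc4 (-0.01) and Tyms (-0.06), the last too dim to be read.

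**Figure D2:**
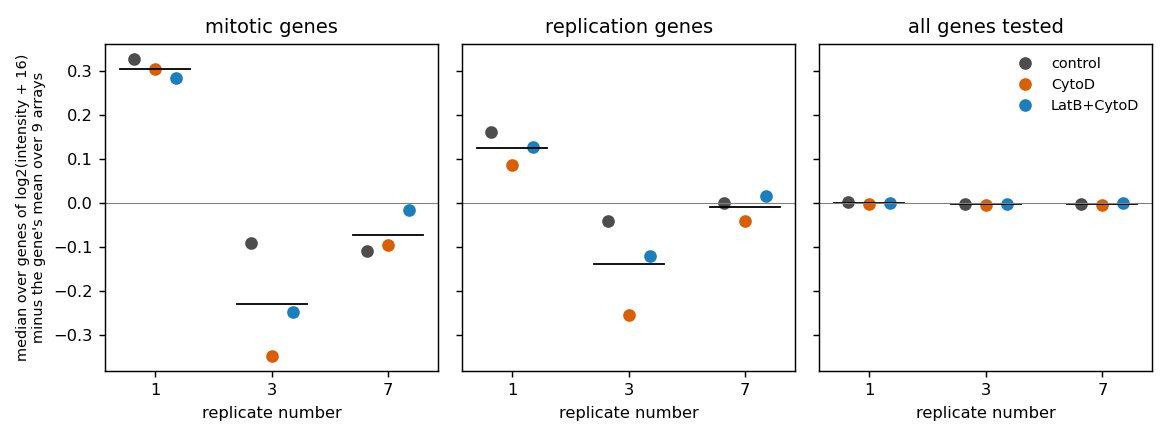
Median over the mitotic genes (left), the replication genes (middle) and all tested genes (right) of log2(intensity + 16) minus each gene's mean, 1 point per array, coloured by agent group. Black lines are means of the 3 arrays of a number. Mitotic medians were 0.28 to 0.33 in number 1 and below 0 on the other 6 arrays, whereas the medians over all genes lay at 0.00 or -0.00.

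The separation between arrays was as plain as the fit. In 43 of the 91 probe sets all 3 arrays numbered 1 lay above the other 6, as in 10.1% of all tested probe sets. Within an agent group, the array numbered 1 was the highest of its 3 for 18 of 23 mitotic genes among controls, 22 with CytoD and 21 with LatB+CytoD. For the replication genes the counts were 16, 16 and 13 of 21, and for all 12651 genes they were 5698, 3945 and 5407. Arrays of 1 agent group had a median SD of 0.32 over the mitotic genes on the log2 scale, and arrays of 1 number a median SD of 0.13. For the replication genes these were 0.18 and 0.13, and for all genes 0.12 and 0.10. The SD was smaller within numbers for 22 of 23 mitotic genes (95.7%) and for 66.7% of replication genes, beside 68.8% of all genes. If arrays with the same number came from 1 day or batch, these p-values rest on 1 such occasion against 2 and measure only the spread between arrays.

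Other measures also differed between the numbers. Mean intensity over the whole array was 419.8 to 424 on the arrays numbered 1 and 410.0 to 419 on the others. The summed intensity of the fibroblast markers was 103357 to 105946 on the former and 105450 to 112245 on the latter, ranges that overlap, with Fbln2 and Thy1 called higher in number 1 and Pdgfrb lower. Krt14 was 159 ± 28.7 in number 1, 90.9 ± 7.83 in number 3 and 124 ± 5.37 in number 7 (SD, n = 3), and Lyz2 was 150.5 ± 3.32, 150.2 ± 20.8 and 72.6 ± 10.6, low in number 7 and alike in the other two. Their part in the result was not tested.

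**Figure D3:**
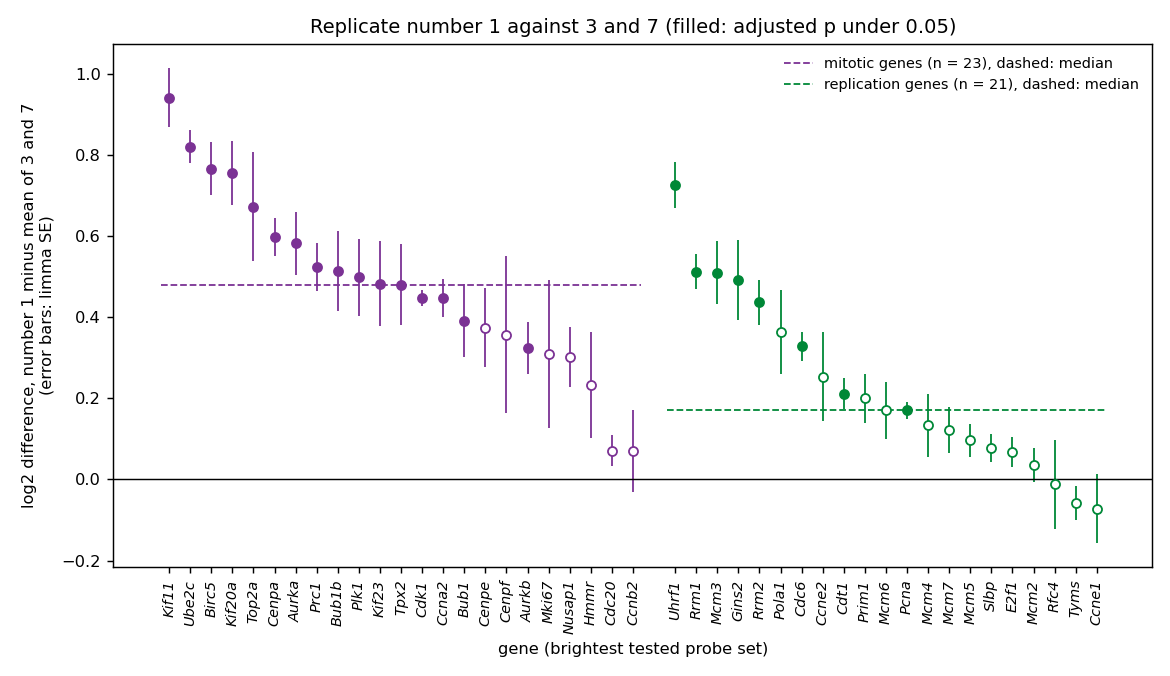
Log2 difference of number 1 from the mean of numbers 3 and 7 for each member gene, with limma standard errors. Filled points were called at an adjusted p under 0.05, and dashed lines are the medians of 0.48 and 0.17.

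Among the kinases and cyclins that drive entry into mitosis, Cdk1, the mitotic cyclin-dependent kinase, was the most even. Its intensities with control, CytoD and LatB+CytoD, the order kept below, were 2037, 1959 and 2068 in number 1, 1525, 1381 and 1445 in number 3, and 1541, 1438 and 1541 in number 7. The lowest array numbered 1 was far above the highest of the other 6, and the difference was 0.45 (SE 0.020, limma adjusted p = 0.00389). Ccna2, cyclin A2, the partner of CDK2 and CDK1 in S phase and G2, read 706, 718 and 636, then 519.7, 477 and 436, then 551, 497 and 519.7, a difference of 0.45 (SE 0.046, adjusted p = 0.00884). Its arrays numbered 1 did not overlap the rest. Plk1, polo-like kinase 1, which acts in mitotic entry and spindle assembly, had 270.5, 339 and 244 in number 1, 196, 181 and 196 in number 3 and 194, 206 and 197 in number 7 (0.50, SE 0.095, adjusted p = 0.0280). Within number 1 its CytoD array stood above the rest. Aurkb, the kinase of the chromosomal passenger complex, read 357, 335 and 303 in number 1, 239, 217 and 245 in number 3 and 284, 284 and 307 in number 7. It was called (0.32, SE 0.065, adjusted p = 0.0311), although its number 7 arrays reached the lowest of number 1. Aurka, which matures the spindle poles, differed by 0.58 (SE 0.077). Ccnb2, cyclin B2, was not called, at 196 ± 8.03, 181 ± 33.5 and 193 ± 16.2 in numbers 1, 3 and 7.

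The genes of chromosome segregation held the largest differences. Kif11, the kinesin that pushes spindle poles apart, had 293, 326 and 314 in number 1, 165, 185 and 154 in number 3 and 132, 135 and 158 in number 7. That is 0.94 on the log2 scale (SE 0.074, adjusted p = 0.00603), 1.92-fold, and the largest of the 44 genes. Ube2c, the ubiquitin-conjugating enzyme of the anaphase-promoting complex, had 1371, 1367 and 1302 in number 1, 721, 808 and 717 in number 3 and 758, 753 and 776 in number 7 (0.82, SE 0.041, adjusted p = 0.00389). Birc5, survivin, a subunit of the chromosomal passenger complex, had 1505, 1388 and 1194 in number 1, 817, 830.3 and 740.4 in number 3 and 816, 740.1 and 804 in number 7 (0.77, SE 0.066, adjusted p = 0.00679). None of these 3 genes had an array numbered 1 near the others, and the agent groups were mixed within each number. Cenpa, the histone variant that marks centromeres, had 1418, 1258 and 1148 in number 1, 961, 884 and 849 in number 3, and 858, 705 and 769.8 in number 7 (0.60, SE 0.046, adjusted p = 0.00591). The control array was the highest of the 3 in each number. Bub1b, which encodes the checkpoint protein BubR1, had 309.8, 297 and 267, then 231, 152 and 167, then 226, 206 and 224 (0.51, SE 0.098, adjusted p = 0.0281). Its number 3 arrays with either drug were the lowest. Kif20a, a kinesin of cytokinesis, was at 601 ± 12.6, 363 ± 40.3 and 339 ± 32.8 in numbers 1, 3 and 7.

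Top2a, topoisomerase II alpha, which untangles sister chromatids, had 1442, 1443 and 1464 in number 1, 972, 609 and 828 in number 3 and 956, 1016 and 1138 in number 7 (0.67, SE 0.13, adjusted p = 0.0315). The arrays numbered 1 were nearly equal, while those numbered 3 spread widely and the CytoD array was the lowest. Mki67, the proliferation marker Ki-67, had 799, 746 and 878 in number 1, 820.2, 459 and 522 in number 3 and 695, 795 and 677 in number 7. These overlapped, and its difference of 0.31 (SE 0.18, adjusted p = 0.334) was not called. Cdc20, which activates the anaphase-promoting complex, had 3929, 3943 and 3905 in number 1, 3746, 3339.7 and 3653 in number 3 and 4186, 3671 and 3867 in number 7, also overlapping (0.07, SE 0.037, adjusted p = 0.279). Of the other mitotic genes, Bub1, Kif23, Tpx2 and Prc1 were called, with differences from 0.39 to 0.52, while Cenpe, Cenpf, Hmmr and Nusap1 were above 0, from 0.23 to 0.37, and not called.

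**Figure D4:**
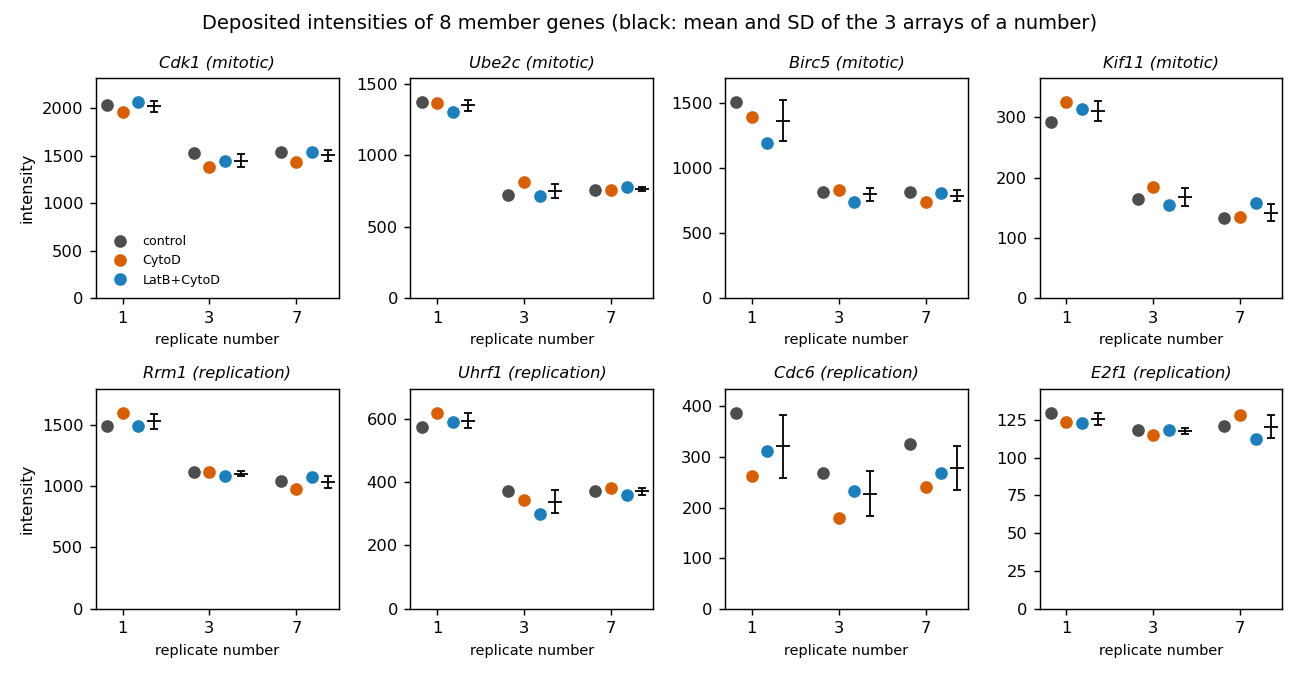
Deposited intensity of 4 mitotic and 4 replication genes by replicate number, 1 point per array, coloured by agent group. Black marks are the mean and SD of the 3 arrays of a number. Cdk1, Ube2c, Birc5, Kif11, Rrm1 and Uhrf1 show number 1 above the rest, Cdc6 shows the agent order within each number, and E2f1 is level.

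Among the replication genes Uhrf1 had the largest difference. Uhrf1, which recruits the maintenance DNA methyltransferase to new DNA, had 573, 619 and 590.2 in number 1, 372, 342 and 299 in number 3 and 372, 381 and 358 in number 7, a difference of 0.73 (SE 0.058, adjusted p = 0.00604). Rrm1, the large subunit of ribonucleotide reductase, had 1493, 1599 and 1494 in number 1, 1114, 1113 and 1079 in number 3 and 1044, 978 and 1076 in number 7 (0.51, SE 0.043, adjusted p = 0.00673). Rrm2, its small subunit, had 2159, 1779.5 and 1931, then 1468, 1049 and 1373, then 1739.8, 1486 and 1608 (0.44, SE 0.055, adjusted p = 0.0117). For all 3 genes every array numbered 1 was above the other 6. Pcna, the sliding clamp of replication forks, had 9285, 9456 and 9509 in number 1, 7925, 7809 and 8292 in number 3 and 8564, 8454 and 9214 in number 7. This was a small difference with small spread, 0.17 (SE 0.021, adjusted p = 0.0118), 1.13-fold, and the groups did not overlap.

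For origin licensing, Cdc6 (0.33, SE 0.036, adjusted p = 0.00940) and Cdt1 (0.21, SE 0.038, adjusted p = 0.0246) were called, both with arrays that overlapped between the numbers. The MCM helicase subunits were divided. Mcm3 was called, with 749, 619 and 625 in number 1, 455, 402 and 418 in number 3 and 466, 508 and 523 in number 7 (0.51, SE 0.077, adjusted p = 0.0170). Mcm5 had 1782, 1633 and 1671, then 1650.3, 1322 and 1495, then 1864, 1621 and 1599 (0.10, SE 0.041, adjusted p = 0.192). Mcm2 had 435, 420.5 and 397, then 423, 350.0 and 379, then 448, 421 and 429.5 (0.03, SE 0.042, adjusted p = 0.626). In both of these the values of number 7 were as high as those of number 1. Mcm6 had 1332, 1491 and 1288, then 1249, 1094 and 1136, then 1238, 1249 and 1328 (0.17, SE 0.070, adjusted p = 0.178), and Mcm4 and Mcm7 were at 0.13 and 0.12, not called. Gins2, part of the helicase complex that travels with the fork, was called (0.49, SE 0.099), whereas Pola1, Prim1 and Rfc4, of the polymerase, primase and clamp loader, were not.

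E2f1, Ccne1, Ccne2 and Slbp were not called. E2f1, the activating E2F factor, had 129.7, 124 and 123 in number 1, 118, 115 and 118 in number 3 and 121, 128 and 112 in number 7 (0.07, SE 0.037, adjusted p = 0.290). Ccne1, cyclin E1, had 199, 194 and 195, then 163, 204 and 196, then 229, 259 and 202 (-0.07, SE 0.085, adjusted p = 0.615), with the highest values in number 7. Ccne2 (0.25, SE 0.11, adjusted p = 0.203) and Slbp (0.08, SE 0.035, adjusted p = 0.207) were also short of the threshold. The arrays of these 4 genes overlapped across the numbers. By promoter element, the 18 genes with a homology region had a median difference of 0.47 and the 19 without one of 0.21. That contrast is largely the contrast of mitotic with replication genes, since 16 of the 18 are mitotic.

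The calls depended on single arrays. Of the 24 genes called, Cdk1, Ccna2, Ube2c, Birc5, Cenpa, Kif11, Rrm1 and Uhrf1 stayed called whichever 1 of the 9 arrays was left out. The number of member genes called was 10 without control 1, 16 without CytoD 1, 12 without LatB+CytoD 1, 21 without control 3, 21 without CytoD 3, 14 without LatB+CytoD 3, 16 without control 7, 19 without CytoD 7 and 15 without LatB+CytoD 7. Probe sets called numbered 19 without control 1 and also without LatB+CytoD 1, 28 without CytoD 1 and 29 without LatB+CytoD 3. The share of all tested probe sets called fell as well, to 4.39%, 4.92%, 11.7% and 8.29% in the same order.

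Numbers 3 and 7 differed less by calls and by the median of the mitotic genes. Of the 91 member probe sets 0 were called, beside 0.0555% of all tested (15 of 27010), and at an unadjusted p under 0.05 there were 2 higher and 27 lower in number 3, beside 1905 and 1544 of all. The smallest adjusted p was 0.116. The median log2 difference of number 3 from number 7 was -0.13 for mitotic and -0.17 for replication genes, against -0.00 over all genes. For the replication genes this was as large as the 0.17 of number 1 against 3 and 7. Of the 44 members 37 were below 0, beside 6330 of all 12651 genes, and without control 3 the mitotic median was -0.25. Prc1 had 321, 339 and 356 in number 3 and 417, 469 and 564 in number 7, against 577, 549 and 637 in number 1. Its number 3 arrays were all below the other 6. Prc1 (-0.48, SE 0.068, adjusted p = 0.133), Cenpf (-0.43, SE 0.22) and Top2a (-0.38, SE 0.16) were the most negative mitotic genes. Cenpf, a kinetochore protein, had 181, 90.1 and 146 in number 3 and 195, 189 and 173 in number 7, with CytoD 3 far below the rest. Mcm4 (-0.40, SE 0.091), Ccne2 (-0.32, SE 0.13) and Rrm2 (-0.32, SE 0.063) were the most negative replication genes, and Mcm4 read 1538, 1171 and 1498 in number 3 and 1799, 1839 and 1876 in number 7. Of the others, Kif11 (0.22, SE 0.085) and Cenpa (0.21, SE 0.053) lay on the other side of 0.

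The difference of number 1 also varied between probe sets of 1 gene. Names ending in at or a_at mark probe sets made for 1 transcript or for the variants of 1 gene, whereas s_at and x_at mark sets with probes that can also match other sequences. The brightest probe set was of the latter kind in 2 of 23 mitotic and 7 of 21 replication genes. In the 14 genes with both kinds at a mean intensity of at least 20, the at or a_at difference of number 1 was the larger in 12, with medians of 0.49 and 0.14. For Mcm5 they were 0.55 and 0.10, for Mcm2 0.50 and 0.03, and for Mcm6 0.17 and -0.18. The at probe sets of Mcm5 (adjusted p = 0.0103), Mcm2 (adjusted p = 0.00603) and Cdc20 (0.30, adjusted p = 0.0131) were called although the brighter x_at or s_at sets above were not, and a second Uhrf1 probe set of lower mean, 75.1, was at 1.49. With at or a_at sets preferred, a choice made after seeing these values, the replication median was 0.25 and 11 of 21 genes were called. With the mean over all tested probe sets of each gene, the mitotic median was 0.31. Of the 32 genes with several tested probe sets, 5 had all of them called higher, 16 some and 11 none. By brightness, 41 of the 70 member probe sets with a mean of 100 or more were called higher, beside 16.5% of all such probe sets. With a mean of 20 to 100 they were 3 of 8, beside 8.07% of all, and below 20 they were 0 of 13, beside 0.681% of all.

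**Figure D5:**
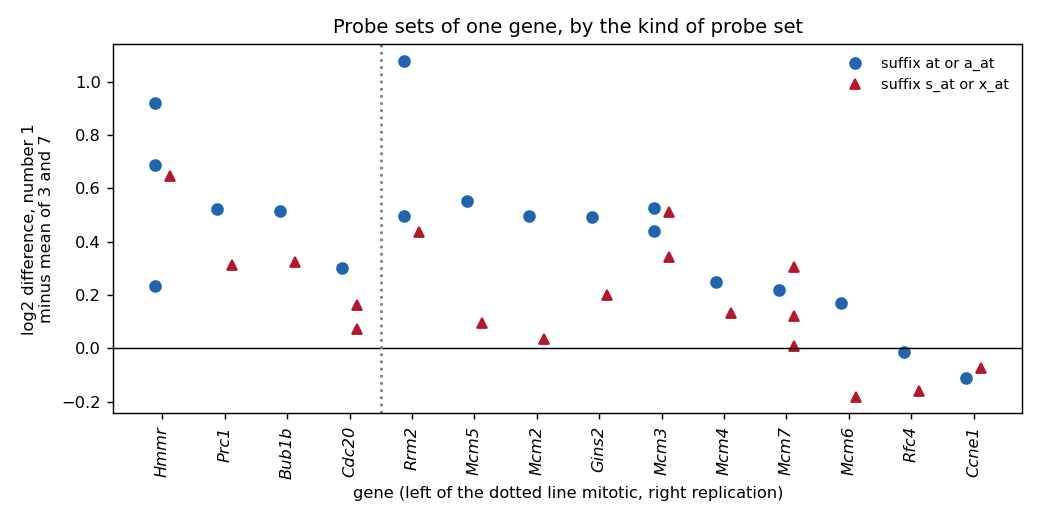
Log2 difference of number 1 from numbers 3 and 7 for each probe set with a mean intensity of at least 20, in the 14 genes that have both kinds. Blue circles are sets ending in at or a_at and red triangles sets ending in s_at or x_at. The circles average higher than the triangles in 12 genes, Hmmr and Ccne1 being the exceptions.

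Other genes of the same pathways, taken from lists of mitotic genes, replication genes, and genes of cell cycle entry and its brakes were set beside the members in the same fits. Of 43 other mitotic genes tested, 16 were higher in number 1 and 1 was lower, with a median of 0.26. Pttg1, securin, was at 1696 ± 113, 1139 ± 133 and 1126 ± 143 in numbers 1, 3 and 7, and Spc25 and Nuf2, subunits of the outer kinetochore NDC80 complex, differed by 0.39 and 0.43. Kif22, a chromosome-arm kinesin, was the one lower (-0.15, SE 0.021). Of 36 other replication genes, 14 were higher and 0 lower, with a median of 0.21. They included Tk1, thymidine kinase 1, at 526 ± 49.7, 303 ± 11.7 and 321 ± 27.2, Cdc45, of the replicative helicase, at 0.52 (SE 0.025), Dut, which removes dUTP, at 0.53, and Rpa2, of the single-strand binding complex, at 0.58.

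Of 31 entry and brake genes, 5 were higher and 5 lower, with a median of 0.02. Over all genes 8.18% were called higher and 11.6% lower (1462 of 12651), so the lower count is near the background. Higher were Myc, Lin9 (a MuvB subunit) and, named after their values were seen, Ccnd1 (cyclin D1), Tfdp1 (the dimer partner of E2F factors) and the CDK inhibitor gene Cdkn2c. Lower were Ccnd3, Skp2 and, also named after their values were seen, Rb1, E2f8 and Wee1. Myc was at 2073 ± 345, 1559 ± 128 and 1232 ± 58.9 in numbers 1, 3 and 7 (0.56, SE 0.097, adjusted p = 0.0219). Ccnd3, cyclin D3, ran the opposite way, at 258 ± 11.9, 310 ± 8.40 and 371 ± 5.07 (-0.37, SE 0.031, adjusted p = 0.00673).

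Of the 43 other mitotic, 36 other replication and 31 entry and brake genes tested, 1 was called in any agent comparison. Over all 12651 genes, 173 were called higher and 71 lower with CytoD against control. The median difference of CytoD from control was -0.18 for the other mitotic, -0.12 for the other replication and -0.03 for the entry and brake genes. Of the genes with the smallest adjusted p in their lists, Gins3, a fork helicase subunit, was at -0.28 (SE 0.060, adjusted p = 0.0992), Rpa1 at 0.19 (SE 0.047, adjusted p = 0.152), Cdkn1b, the CDK inhibitor p27, at -0.26 (SE 0.082, adjusted p = 0.303) and Ccnd1 at -0.59 (SE 0.21, adjusted p = 0.383). Fbxo5, which encodes EMI1, an inhibitor of the anaphase-promoting complex, fell with CytoD. Its intensities were 948, 881 and 933 in controls numbered 1, 3 and 7, 661, 626 and 587 with CytoD and 708, 754 and 691 with LatB+CytoD. The 3 groups did not overlap, and CytoD lay wholly below control in 1743 of all 27010 tested probe sets. For Fbxo5, CytoD differed from control by -0.55 (SE 0.053, adjusted p = 0.00494), and leaving out any 1 array kept the adjusted p between 0.00962 and 0.0289. LatB+CytoD differed from control by -0.35 (adjusted p = 0.103) and CytoD from LatB+CytoD by -0.20 (adjusted p = 0.574), neither called. Between the numbers it was not called, at 772 ± 154, 754 ± 127 and 737 ± 177 in numbers 1, 3 and 7 (0.05, SE 0.045, adjusted p = 0.497).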

How the data were processed

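RNA from 9 cultures, 3 per agent group, was measured on Affymetrix arrays. The deposited values are intensities, 1 per probe set and array, on a linear scale as their range shows. MAS5 and GCRMA appear in the submitters' processing notes with neither a version nor a role, so which one the authors used for these values is not given in the sources used here. Probe sets were named by the platform annotation where it gives 1 symbol (34958 of 45101 probe sets), with symbols updated through the RefSeq gene table of GRCm38.p6.

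Here intensities were changed to log2(intensity + 16), which shrinks differences of dim probe sets, and the 64 control probe sets and those not above the 40th percentile of their array on at least 3 arrays were left out. limma 3.58.1 (R 4.3.3) was run over 27010 probe sets, with agent group alone for the 3 agent contrasts (6 residual degrees of freedom) and with replicate number and agent for the 2 number contrasts (4). Two-sided p-values were adjusted by the Benjamini-Hochberg method. The script was tested on simulated data. The number of arrays limits the precision.

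The rule for named genes gives array values for 24 listed genes (Tyms as a range), and the 3 genes of each set with the largest rise or fall per comparison; of each other list, up to 4 genes with the smallest adjusted p per comparison. Genes named beyond it were added for context, after their values were seen. The members and lists were chosen with earlier results of these data known. Whether replicate numbers pair the arrays was checked on deviations from the group means. Correlations were 0.0763 to 0.834 for the 9 pairs of arrays with the same number and -0.722 to 0.391 for the 18 other pairs. Control 3 with CytoD 3 was the lowest of the 9, and the rest were at 0.411 or more. Because that 1 pair did not exceed 0.1, the numbers were not used as pairs. Differences between the numbers therefore remained in the standard errors of the agent contrasts.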

Additional observations from a re-analysis of the deposited data

How the results depend on the processing

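Alternatives were another pseudocount (1 or 64), no filter or the 60th percentile, quantile normalization, centring each array on its median, limma's intensity trend, the mean over a gene's probe sets, a fit on fewer arrays, no agent term, and leaving out each array in turn. In a fit with the replicate number as a replicate block, CytoD against control called 1 member probe set, Cdc6 (adjusted p = 0.00862), while all called probe sets went from 423 to 1044, and the block changed no other agent count of the members. Their other agent counts were 0 throughout. Some agent medians changed sign when single arrays were left out; they ran for CytoD against control from -0.31 to 0.04 in the mitotic genes and from -0.25 to -0.03 in the replication genes. For number 1 against 3 and 7, 44 probe sets were called, 20 with control and LatB+CytoD arrays only (19 higher, 1 lower), 19 to 41 with 1 array left out, and 34 to 52 in the other fits. The mitotic median was 0.31 with the mean over a gene's tested probe sets, 0.40 with control and LatB+CytoD arrays only, and 0.40 to 0.52 with 1 array left out. The replication median was 0.25 with probe sets ending in at or a_at preferred, an alternative added after seeing the data. All alternatives kept both medians above 0. For number 3 against 7, 1 probe set was called after quantile normalization and 3 with arrays centred on their median, and the mitotic median ran from -0.247 to -0.093 with 1 array left out. The causes were not tested. Dim probe sets limit what can be said of Tyms.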

Other observations

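Probe sets of a gene or complex gave a range of differences between the numbers. In ribonucleotide reductase, the 3 tested Rrm2 probe sets were at 0.44, 0.50 and 1.08 in number 1 against 3 and 7, and the 3 Rrm1 probe sets at 0.51, 0.49 and, for a dim one with a mean intensity of 6.25, 0.01. In the MCM helicase the brightest probe sets ranged from 0.03 for Mcm2 to 0.51 for Mcm3. Hmmr, a spindle protein that binds hyaluronan, was not called at its brightest probe set (0.23), while its 3 dimmer ones were at 0.69, 0.65 and 0.92 and each was called. Cenpe was at 0.37 with its brighter probe set and at -0.19 with the dimmer one, neither called.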
